A study of Mus musculus with 6 samples.

Results

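The cells described here are epithelial cells of mouse embryonic pancreatic tissue at embryonic day 10.5. They carried transcripts of at least 1 of the genes Hhex, Sox17 and Itih2, by the rule given below. A cell barcode was taken when it had at least 2000 detected genes, at least 3 unique molecular identifiers (UMIs, each standing for 1 captured RNA molecule) of the epithelial genes Epcam, Cdh1, Krt8 and Krt18 together, and fewer UMIs of the mesenchymal genes Col1a1, Col1a2, Col3a1 and Pdgfra. Cells with 3 or more UMIs of Chga and Chgb, or 2 or more of Neurog3, were left out as endocrine. These cells were chosen by measured RNA levels. Of the 258 cells in this epithelial gate, the 83 with at least 4 UMIs of Hhex, Sox17 and Itih2 together form the group. They came from 1919 deposited barcodes. The other 175 cells of the gate are called the rest of the gate.

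The study made single-cell RNA libraries with a 10x Genomics 3′ kit from manually dissected pancreatic progenitor tissue of C57BL/6 mice. The wild-type embryos (WT) had the genotype Ptf1a+/+. The other embryos (KO) had the genotype Ptf1aenh-delta/enh-delta, which is homozygous for the loss of an enhancer of Ptf1a, a transcription factor gene of the early pancreas. Each genotype had 1 RNA library, made from a pool of 5 to 9 embryos, so every comparison below is between 2 libraries, has no replicate check and carries no test. Intervals are 95% intervals that cover counting error only.

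In the embryo, the liver, the extrahepatic bile ducts and the ventral pancreas grow out of neighbouring ventral foregut endoderm. Hhex encodes a homeodomain transcription factor needed for the liver and ventral pancreas buds. Sox17 encodes an SRY-related factor that marks the biliary primordium and is known to oppose Pdx1, the transcription factor of the pancreatic bud. Itih2 encodes an inter-alpha-trypsin inhibitor heavy chain, a plasma protein made mainly by the liver. On the mm10 build, Hhex lies on chromosome 19 at positions 37434810 to 37440731, Sox17 on chromosome 1 at 4490931 to 4497354, Itih2 on chromosome 2 at 10094593 to 10131396 and Ptf1a on chromosome 2 at 19445663 to 19447501. All 4 are protein-coding genes.

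The WT library held 1104 barcodes and the KO library 815, of which 261 and 276 had at least 2000 genes. The gate kept 153 WT and 105 KO cells, and 23 WT and 60 KO cells passed the marker rule. Their median depth was 14768 UMIs per cell in WT and 15937 in KO, against 12588.5 and 12931 in the rest of the gate. In all, the group held 353811 UMIs in WT and 1009608 in KO, and the rest 1745062 and 585976. Gene counts given below in UMIs are not scaled to these totals. The libraries shared 1 barcode, which was not among the 83 cells, and scrublet called none of the 83 a doublet (10 calls over both libraries, 2 in WT and 8 in KO). The libraries also differed in the sex of the cells. Xist, the RNA of the inactive X chromosome in female cells, was seen in 0 of the 23 WT cells of the group and in 52 of the 60 KO cells (86.7%), and Y-linked genes had a UMI in 18 of these 23 WT cells and in 15 of the 60 from KO. In KO 9 cells had both Xist and a Y-linked UMI, so the sex of single cells was not cleanly read. Genotype, sex and library therefore cannot be told apart in any comparison of KO with WT within the group.

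Of all cells with at least 2000 genes, 16.5% in WT and 69.2% in KO had a Xist UMI. Free RNA in the droplets was gauged from 13 WT and 7 KO mesenchymal cells, which had more mesenchymal than epithelial UMIs and no hormone RNA above a minimum. These cells held 99066 and 41541 UMIs in all, so a single UMI weighs heavily in their levels. Their median depth was 5389 (WT) and 4980 (KO) UMIs per cell, below the 14768 and 15937 of the group. Their CPM levels may therefore overstate free RNA in the group and serve only as a rough guide.

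The group combined cells with different sets of the 3 marker genes. All 3 genes were seen in 13 of 23 WT cells and 21 of 60 KO cells. Hhex and Itih2 without Sox17 were seen in 2 WT and 28 KO cells. Hhex and Sox17 without Itih2 were seen in 3 WT and 4 KO cells, and no cell of the group had Sox17 alone. The marker sum reached 20 UMIs in WT and 36 in KO, with medians of 6 and 8.5. Some cells lay at the threshold: 4 WT and 3 KO cells had a sum of 3, and 3 WT and 10 KO cells a sum of 4. The 10 KO cells just inside held 25 Hhex, 15 Itih2, 0 Sox17 and 28 Pdx1 UMIs. All 10 are thus among the 33 KO cells of the group without Sox17. The 3 KO cells just outside held 8 Hhex, 1 Itih2 and 0 Sox17 UMIs. A sum of 0 was found in 71 WT cells (46.4% of the gate) and 16 KO cells (15.2%).

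Sox17 and Pdx1 were largely seen in different cells: 14 WT and 25 KO cells had Sox17 without Pdx1, 5 WT and 19 KO cells had Pdx1 without Sox17, and 1 WT and 14 KO cells had neither. Only 3 WT and 2 KO cells had both, and none of these had 2 or more UMIs of each. In the KO library 26 cells had 2 or more Sox17 UMIs and 15 had 2 or more Pdx1 UMIs. In the WT library these numbers were 12 and 5. The cells were therefore also described as those with a Sox17 UMI (17 WT, 27 KO) and those without one (6 WT, 33 KO), a division made after the data had been seen. The cells without Sox17 are a mixed set: in KO 19 of the 33 had Pdx1 and 14 had neither gene. Because Sox17 is part of the marker sum, a cell without it had to reach 4 UMIs on Hhex and Itih2 alone.

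**Figure D1:**
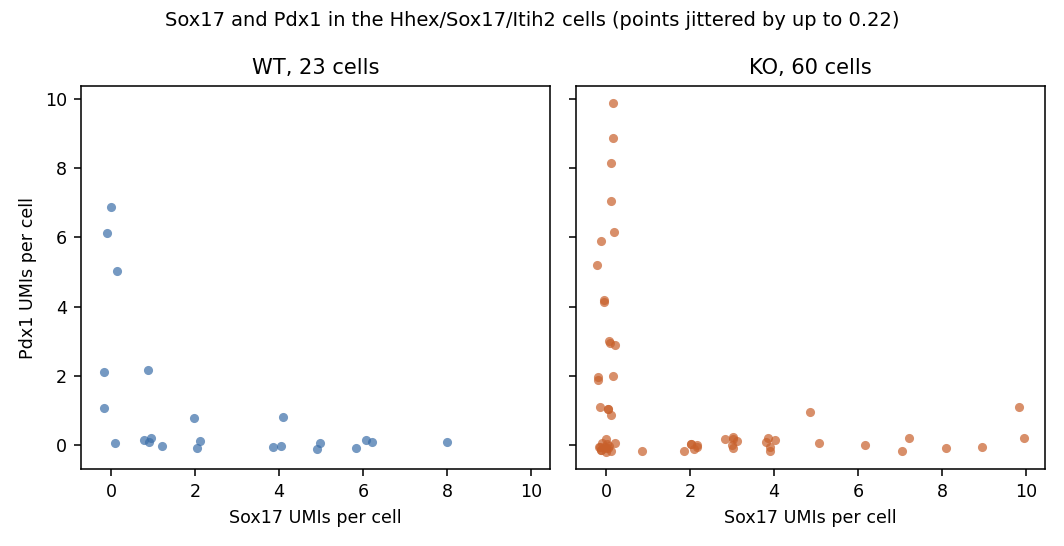
Sox17 UMIs (x axis) and Pdx1 UMIs (y axis) of each of the 23 WT (left) and 60 KO cells (right), 1 point per cell, shifted by up to 0.22 so that points do not hide each other. The points lie along the 2 axes, and the cells with many Pdx1 UMIs, up to 7 in WT and 10 in KO, are at 0 Sox17 UMIs.

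Several genes of the pancreatic bud were lower in the cells with Sox17 than in those without. Pdx1 was at 16.4 CPM (UMIs of the gene per 1000000 UMIs of the summed cells) in the WT cells with Sox17 and 4.75 CPM in the KO ones, against 192 and 133 CPM in the cells without Sox17. Nkx6-2, a homeobox gene of early pancreatic progenitors, was at 53.1 and 2.37 CPM with Sox17 and at 192 and 286 CPM without. Nepn, which encodes the proteoglycan nephrocan and is known from foregut progenitors, was at 131 and 11.9 CPM with Sox17 and at 494 and 554 CPM without. Each of these genes was lower with Sox17 than without it in both libraries, and Nkx6-2 and Nepn were also lower in the KO than in the WT cells with Sox17. The 13 WT mesenchymal cells had Nepn at 232 CPM, above the cells with Sox17. Rbp4, the retinol-binding protein gene, was at 119 CPM (WT) and 180 CPM (KO) with Sox17 and at 824 and 1521 CPM without.

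A single WT cell, with 1 Sox17 UMI, carried much of the progenitor RNA of the 17 WT cells with Sox17. It held 27 of their 32 Nepn UMIs, 10 of 13 Nkx6-2, 14 of 29 Rbp4, 11 of 23 Spp1 and 24 of 78 Sox9 UMIs. With 1 Hhex, 1 Sox17 and 2 Itih2 UMIs it lay at the marker sum of 4. It was picked after seeing the data as the WT cell with Sox17 that held the most Nepn UMIs. A fall in Nepn was fixed by this choice, and no cell was left out of the other sets. Without it, the other 16 WT cells had Nepn at 21.9 CPM, Nkx6-2 at 13.1 CPM, Pdx1 at 8.74 CPM and Rbp4 at 65.6 CPM. The WT log2 ratios of cells with over cells without Sox17 were then -3.98 for Nepn (from -1.84), -3.13 for Nkx6-2 (from -1.68), -3.43 for Pdx1 (from -2.94) and -3.46 for Rbp4 (from -2.70).

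Fewer genes were higher with Sox17. Ifitm3, an interferon-induced membrane protein gene, was at 164 CPM (WT) and 204 CPM (KO) in the cells with Sox17 and at 27.5 and 28.9 CPM in those without. Cited1, which encodes a transcriptional co-regulator, was at 356 and 826 CPM with Sox17 and at 183 and 153 CPM without. Flrt3, a leucine-rich transmembrane protein gene, was at 229 and 199 CPM with Sox17 and at 73.3 and 74.8 CPM without. Paqr9, a receptor of the progestin and adipoQ family, was at 98.1 and 240 CPM with Sox17 and at 45.8 and 73.1 CPM without. The Paqr9 intervals of the WT cells with and without Sox17 overlapped, and those of the KO cells did not. Ttr, the plasma carrier of thyroid hormone and retinol, was highest in the cells with Sox17, at 1635 and 1555 CPM, and still stood at 952 and 974 CPM in the cells without it.

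Of 2940 genes with at least 20 UMIs in these cells in each library, 6 (0.204%) were at least 2-fold higher with Sox17 in both libraries, on log2 ratios of CPM plus 10, and 21 (0.714%) were at least 2-fold lower. The genes with the largest log2 ratios on the higher side were Sox17 itself, Ifitm3 and Flrt3, and on the lower side Pdx1, Rbp4, Nrp2, Mecom and Nepn. Mecom, a zinc finger transcription factor gene, had 2 UMIs with Sox17 in each library and 20 (WT) and 31 (KO) without. Nrp2, a semaphorin and VEGF co-receptor gene, had 5 and 2 UMIs with Sox17 and 19 and 34 without. These counts stand against totals of 244604 (WT) and 421212 (KO) UMIs with Sox17 and 109207 and 588396 without. Sfrp5, which encodes a secreted Wnt antagonist of the ventral foregut, was at 28.6 and 16.6 CPM with Sox17 and 156 and 81.6 CPM without. Of the 19 pancreatic progenitor genes listed for this work, 9 could be measured in each library, not all of them the same genes. In WT 6 of the 9 and in KO 5 of the 9 were at least 2-fold lower with Sox17 and none was 2-fold higher, with medians of -1.23 and -1.49 beside -0.02 and -0.10 over all genes. All 18 proliferation genes were measured, with medians of -0.29 in WT and 0.00 in KO.

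The WT side of this split rests on few cells. With cells carrying a UMI of the 4 mesenchymal genes left out, 2 of the 6 WT cells without Sox17 and 11 of the 17 with it remained (12 of 33 and 13 of 27 in KO). The WT cell rich in progenitor RNA had no such UMI and remained, and the WT log2 ratios turned for Rbp4 (from -2.70 to 0.38) and Nepn (from -1.84 to 4.29), while the KO ratios were -2.99 and -4.57, beside -3.01 and -4.69 with all cells. In WT alone 114 of 2943 genes (3.87%) were at least 2-fold higher with Sox17 and 117 (3.98%) lower, and in KO alone 61 of 6782 (0.899%) were higher and 269 (3.97%) lower.

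**Figure D2:**
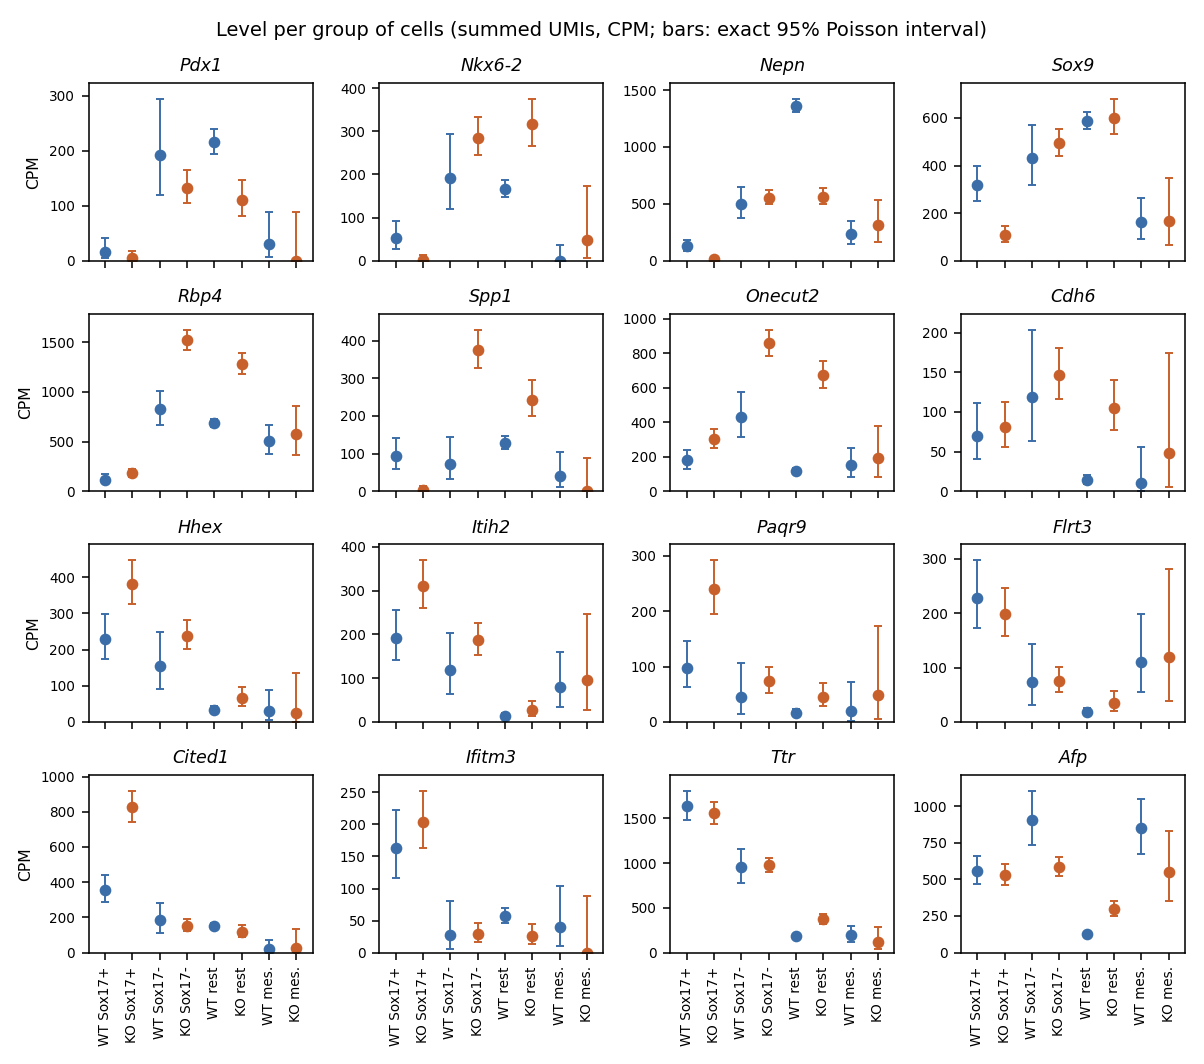
Level of 16 genes in CPM (y axes, each from 0) in the cells with (Sox17+) and without (Sox17-) a Sox17 UMI, the rest of the gate without hormone-rich cells (rest) and mesenchymal cells (mes.), for WT (blue) and KO (orange). Points are summed UMIs and bars exact Poisson intervals; Pdx1, Nkx6-2, Nepn and Rbp4 are lower in both Sox17+ groups than in the Sox17- groups and Cited1, Ifitm3 and Flrt3 are highest there.

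The KO cells without Sox17 had progenitor genes near, and liver-type plasma protein genes above, the level of the rest of their gate. Against the 33 KO cells of the rest of the gate with fewer than 10 UMIs of the hormone genes Gcg, Ghrl, Pyy, Iapp and Sst together, 16 of 3720 genes (0.43%) were at least 2-fold higher in them and 8 (0.215%) at least 2-fold lower. The KO cells with Sox17 differed from the same cells in 44 of 2990 genes (1.47%) on the higher side and 72 (2.41%) on the lower side. Pdx1 was at 133 CPM in the KO cells without Sox17 and at 110 CPM in these other cells, Nkx6-2 at 286 and 317 CPM, Nepn at 554 and 565 CPM, and Onecut2 at 857 and 673 CPM. Of the liver-type plasma protein genes, 11 were measured and all 11 had log2 ratios above 0, 3 of them at least 2-fold higher, with a median of 0.72 beside 0.01 over all genes. Serpina1a was the highest of them, at 202 CPM against 57.4 CPM (1.66). In WT, the 6 cells without Sox17 had 109207 UMIs in all, and 123 of 4983 genes (2.47%) were at least 2-fold higher and 288 (5.78%) at least 2-fold lower than in the 125 other WT cells. For the WT cells with Sox17 the numbers were 62 of 5227 (1.19%) and 184 (3.52%). With so few cells the WT values carry wide counting error.

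The group made up 15.0% of the WT gate (23 of 153, exact binomial interval 9.77% to 21.7%) and 57.1% of the KO gate (60 of 105, 47.1% to 66.8%). The difference was 42.1 percentage points (Newcombe interval 30.5 to 52.4). Cells with Sox17 were 11.1% of the WT gate and 25.7% of the KO gate, a difference of 14.6 points (5.10 to 24.6). Cells of the group without Sox17 were 3.92% of the WT gate and 31.4% of the KO gate, a difference of 27.5 points (18.3 to 37.1). Over all cells with at least 2000 genes, a denominator that the epithelial thresholds do not enter, the group was 8.81% of WT and 21.7% of KO cells. With hormone-rich cells left out, an alternative chosen after seeing the data, the shares of the gate were 15.0% and 63.3%. The embryos were dissected by hand and pooled, so how much neighbouring foregut each pool held was not measured and its part in these shares was not tested.

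**Figure D3:**
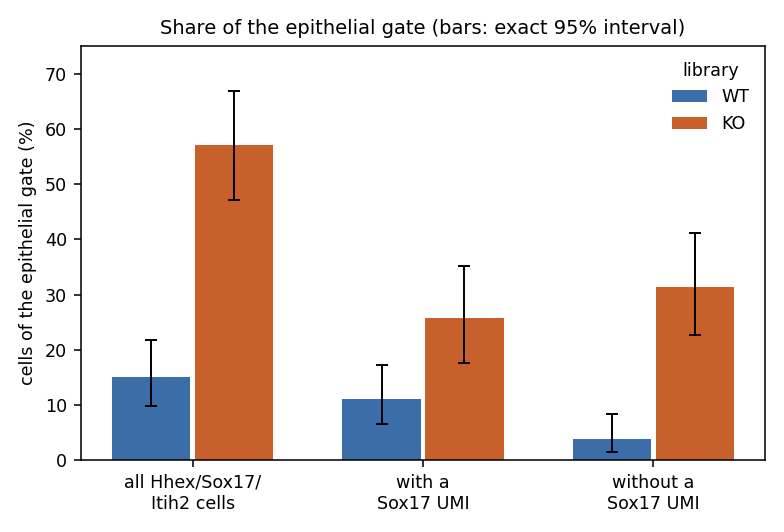
Percent of the epithelial gate (y axis, from 0) taken by all cells of the group, by those with a Sox17 UMI and by those without one, in WT (blue, 153 cells) and KO (orange, 105 cells), with exact 95% binomial intervals. The KO bar is higher in each pair, and the intervals of the pair with a Sox17 UMI do not overlap, at 6.61% to 17.2% and 17.7% to 35.2%.

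The share was also read within cells classed by whether Pdx1 and Sox17 were seen. Of the gate cells with a Pdx1 UMI and no Sox17 UMI, 5 of 108 in WT (4.63%, 1.52% to 10.5%) and 19 of 38 in KO (50%, 33.4% to 66.6%) reached the marker sum of 4. Their median depths were 13417 and 16906 UMIs, and the marker sum was not scaled for depth. Xist was seen in 18 of these WT cells (16.7%) and 28 of these KO cells (73.7%). Genotype, sex and library cannot be told apart in these cells either. Hhex was at 36.3 CPM in these WT cells (57 UMIs) and at 165 CPM in the KO cells (112 UMIs), a ratio of 4.55 (3.28 to 6.37). Itih2 was at 22.3 CPM (35 UMIs) and 79.5 CPM (54 UMIs), a ratio of 3.57 (2.29 to 5.63). Onecut2, which encodes a cut-homeobox factor of liver, bile duct and pancreas, was at 149 and 958 CPM, a ratio of 6.41 (5.51 to 7.47), and the cadherin gene Cdh6 at 21.6 and 138 CPM, a ratio of 6.40 (4.28 to 9.77). Pdx1 itself was at 249 CPM in WT and 196 CPM in KO, a ratio of 0.787 (0.641 to 0.960), and Sox9 was at 636 and 614 CPM, with an interval of the ratio that included 1 (0.858 to 1.08). Of 6091 genes measured in these cells, 107 (1.76%) were at least 2-fold higher in KO and 59 (0.969%) lower. The Hhex level in the KO cells was above that of the KO mesenchymal cells (24.1 CPM, 1 UMI), while the Itih2 level was below theirs (96.3 CPM, 4 UMIs) and within their counting error.

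Of gate cells with neither a Sox17 nor a Pdx1 UMI, 1 of 25 in WT and 14 of 39 in KO (35.9%) reached the sum, a difference of 31.9 percentage points (11.5 to 47.9). Their median depths were 7867 and 11476 UMIs.

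The group was next set against the rest of the gate in each library. The rule chose the cells on Hhex, Sox17 and Itih2, so their levels only describe the choice: Hhex was at 206 CPM (WT) and 298 CPM (KO), Sox17 at 167 and 117 CPM, and Itih2 at 170 and 239 CPM. In the rest of the gate these 3 genes were at 2.29 to 32.1 CPM in WT and 1.71 to 61.4 CPM in KO. Of 4948 genes with at least 50 UMIs in each library, 14 (0.283%) were at least 2-fold higher in the group in both libraries and 9 (0.182%) at least 2-fold lower, the 3 rule genes included. In WT alone 55 of 5571 genes (0.987%) were higher and 107 (1.92%) lower, and in KO alone 41 of 5200 (0.788%) and 45 (0.865%). The median log2 ratio over all genes was -0.01 in each library.

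Of the 3 further markers, which were proposed for these cells with earlier results of these data known, 1 was at least 2-fold higher in both libraries. Paqr9 was at 82.0 CPM in the group and 16.0 CPM in the rest in WT (log2 ratio 1.82), and at 143 and 42.7 CPM in KO (1.54). Onecut2 was at 257 and 116 CPM in WT (1.09) but at 625 and 575 CPM in KO (0.12). Cdh6 was at 84.8 and 13.2 CPM in WT (2.03) and at 119 and 92.2 CPM in KO (0.34), where the interval of the ratio included 1 (0.928 to 1.81). Onecut2 and Cdh6 therefore did not set the KO cells of the group apart from their neighbours. Pdx1-bearing cells were part of the group in both libraries, and only 1 of the 3 further markers separated it in KO. The cells are therefore named here by their rule and not as hepatobiliary cells.

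Several liver-type plasma protein genes were on the higher side. Of the 25 listed, 14 were measured in each library; in WT 7 were at least 2-fold higher and 1 lower, and in KO 4 were higher and none lower, with medians of 0.87 and 0.79. Ttr was at 1424 CPM in the group and 192 CPM in the rest in WT, and at 1216 and 473 CPM in KO, with log2 ratios of 2.83 and 1.35. Serpina1a, an alpha-1-antitrypsin gene, was at 90.4 and 26.4 CPM in WT and at 176 and 59.7 CPM in KO; the Serpina1 genes are near-identical copies, so their reads may be split between them. Apoa2, an apolipoprotein of high-density lipoprotein, was at 82.0 and 31.5 CPM in WT and at 104 and 46.1 CPM in KO, close to the 80.8 and 120 CPM of the mesenchymal cells.

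Markers of differentiated liver were low or near the level of the mesenchymal cells. Alb, the serum albumin gene, had 10 UMIs in the WT group (28.3 CPM) and 23 in the KO group (22.8 CPM), beside 90.8 CPM in the WT mesenchymal cells. Ahsg, another hepatocyte plasma protein, had 0 UMIs in both, which allows up to 8.48 CPM in WT and 2.97 CPM in KO, from 3 counts per group. Afp, the fetal serum albumin homologue, was at 667 CPM (WT) and 564 CPM (KO), but the mesenchymal cells had it at 848 and 554 CPM. With cells thinned to an equal depth, Afp was seen in 73.9% (WT) and 81.7% (KO) of the group. In the rest of the gate it was then seen in 38.8% and 64.3%, and the KO intervals overlapped. How much of the Afp in the group was free RNA was not tested, so it was not read as expression by the group. Of the 16 hepatic and endoderm transcription factors, 8 were measured in WT and 9 in KO, and Gata6 was the highest in each. Gata6, a zinc finger factor of endoderm and mesoderm, was at 138 CPM against 68.2 in WT and at 148 against 66.6 in KO, with log2 ratios of 0.93 and 1.04, and the WT mesenchymal cells had it at 222 CPM. Prox1, a homeobox factor of the liver and pancreas buds, was lowest in WT, at 67.8 against 166 CPM, and at 84.2 against 104 CPM in KO. The biliary and duct list had medians of -0.34 over 8 genes in WT and 0.08 over 9 in KO, and none of them was 2-fold apart in either direction.

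Other genes on the higher side had varied roles. Car4, which encodes a membrane-bound carbonic anhydrase, was at 155 CPM in the group and 10.3 in the rest in WT, and at 49.5 and 8.53 CPM in KO. Slc2a2, the GLUT2 glucose transporter gene of liver and beta cells, was at 59.4 and 18.9 CPM in WT and at 52.5 and 11.9 CPM in KO. Flrt3 was at 181 and 17.8 CPM in WT and at 127 and 44.4 CPM in KO, where the mesenchymal cells were near the group at 120 CPM. Dusp9, a MAP kinase phosphatase gene, was at 294 and 88.2 CPM in WT and at 307 and 143 CPM in KO, beside 182 and 265 CPM in the mesenchymal cells.

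Pancreatic progenitor genes were lower in the WT group than in the WT rest. Of 17 measured genes, 11 were at least 2-fold lower and 1 higher, and the median was -1.22. In KO 9 were measured, none was 2-fold apart, and the median was -0.22. Ptf1a, Cpa1 and Chst2 were among the genes below the minimum in KO, so the medians are over different sets of genes. Nepn was at 243 CPM in the group and 1333 in the rest in WT, and at 328 and 495 CPM in KO. Sox9, a factor of progenitors and ducts, was at 353 and 615 CPM in WT and at 334 and 555 CPM in KO. Nefm, a neurofilament gene, and Isl1, an islet transcription factor gene, were among the genes lower in both libraries. Nefm had 1 UMI in the WT group and 8 in the KO group against 159 and 70 in the rest. Isl1 had 4 and 20 against 110 and 161. The totals were 353811 (WT) and 1009608 (KO) UMIs in the group and 1745062 and 585976 in the rest.

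Part of that lower side went with hormone cells in the rest of the gate. Of the rest, 5 of 130 WT cells and 12 of 45 KO cells had at least 10 hormone UMIs, against 1 of 23 and 3 of 60 in the group. Slc38a5, an amino acid transporter gene of endocrine cells, was at 25.4 and 128 CPM in WT and at 11.9 and 753 CPM in KO, in the group and the rest. Pyy, the gut peptide gene, was at 11.3 and 83.1 CPM in WT and at 96.1 and 843 CPM in KO. Without these hormone cells of the rest, 12 of 4663 genes (0.257%) were at least 2-fold higher in both libraries and 6 (0.129%) at least 2-fold lower. Slc38a5, Isl1 and Nefm were still among the 12 lowest genes then, and Pyy was not. In WT alone these were 49 of 5440 (0.901%) and 105 (1.93%), and in KO alone 44 of 4833 (0.91%) and 22 (0.455%).

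**Figure D4:**
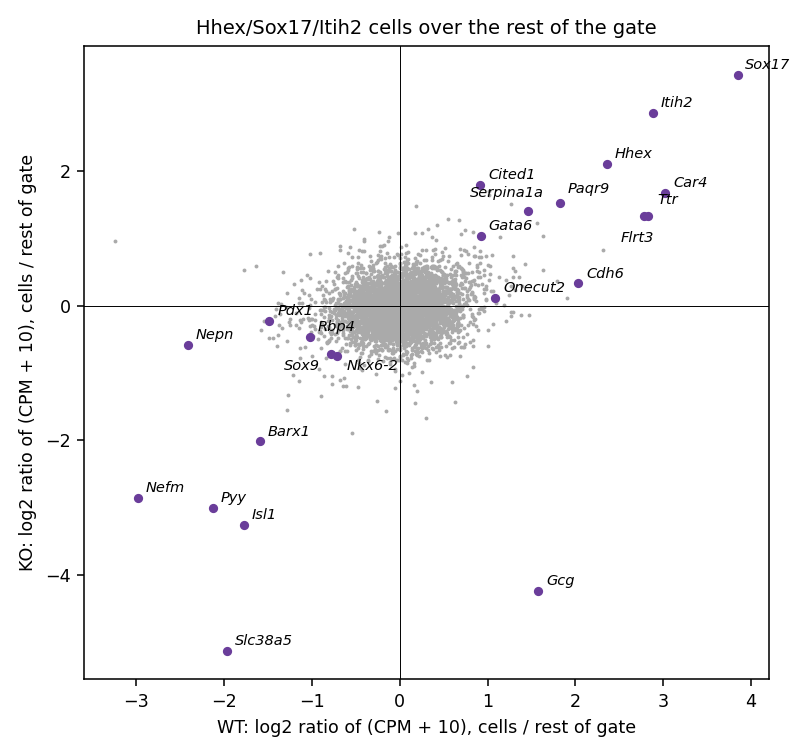
Log2 ratio of CPM plus 10 between the group and the rest of the gate in WT (x axis) and KO (y axis), 1 point per gene with at least 50 UMIs in each library, with named genes in purple. Sox17, Itih2, Hhex, Car4 and Ttr lie at the upper right, Onecut2 and Cdh6 lie near 0 on the KO axis at 0.12 and 0.34, and Gcg is high in WT and low in KO.

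KO and WT cells of the group were compared first in Ptf1a, the gene whose enhancer was deleted, and in genes of the tip of the pancreatic bud. These had too few UMIs in the group for the minimum of 50 and are given as counts. Ptf1a had 8 UMIs in 4 of the 23 WT cells and 0 UMIs in the 60 KO cells, which allows up to 2.97 CPM, and all 4 WT cells with Ptf1a also had a Pdx1 UMI. The WT level was 22.6 CPM, against 65.9 CPM in the rest of the WT gate. Cpa1, a carboxypeptidase gene of the tip and later of acinar cells, had 23 UMIs in the WT group and 1 in the KO group. Chst2, a sulfotransferase gene, had 16 and 2 UMIs. In the rest of the gate Cpa1 had 382 UMIs in WT and 1 in KO, and Chst2 had 293 and 4. Nkx6-1, a homeobox factor of pancreatic progenitors, was at 25.4 CPM in the WT and 12.9 CPM in the KO group, and at 71.1 and 17.1 CPM in the rest.

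Across 4477 genes with at least 50 UMIs in the group in both libraries together, 65 (1.45%) were at least 2-fold higher in KO and 6 (0.134%) at least 2-fold lower. The median log2 ratio over all genes was 0.11, so single values are best read against that shift. With the libraries scaled by the median of ratios the numbers were 41 and 12. In the rest of the gate, 109 of 6153 genes (1.77%) were at least 2-fold higher in KO and 59 (0.959%) lower, or 61 and 95 with that scaling. Of the 65 genes higher in the KO group, 61 were measured in the rest and 7 were also at least 2-fold higher there. Of the 6 lower, 5 were measured and 3 were also lower.

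Onecut2 was at 257 CPM in the WT group and 625 CPM in the KO group, a log2 ratio of 1.25. In the rest of the gate it was at 116 and 575 CPM (2.22), in the cells with Sox17 at 180 and 302 CPM (0.71) and in the cells of the group without Sox17 at 430 and 857 CPM (0.98). So the KO level was higher in each set of cells, and the WT rest of the gate had the lowest level, at 116 CPM. Mesenchymal cells had Onecut2 at 151 CPM in WT and 193 CPM in KO, and the WT cells with Sox17 were within the counting error of that level.

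Rbp4 and Spp1 were also higher in the KO group. Rbp4 was at 336 CPM in WT and 962 CPM in KO, a log2 ratio of 1.49. Within the cells with Sox17 it was at 119 and 180 CPM, and within those without at 824 and 1521 CPM. Spp1, the osteopontin gene of bile duct and other epithelia, was at 87.6 and 220 CPM in the whole group, but its direction differed between cells with and without Sox17. In the cells with Sox17 it had 23 UMIs in WT (94.0 CPM) and 1 in KO (2.37 CPM), and in the cells without Sox17 it had 8 UMIs in WT (73.3 CPM) and 221 in KO (376 CPM). Without the WT cell rich in progenitor RNA, the other 16 WT cells with Sox17 had 12 Spp1 UMIs (52.5 CPM). The difference between these opposite directions was not tested. The group's values for both genes therefore depend on the mix of cells, since cells with Sox17 were 73.9% of the WT group and 45% of the KO group.

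Among the cells with Sox17 alone, 33 of 2177 genes (1.52%) were at least 2-fold higher in KO and 8 (0.367%) lower. Apoa2 had 8 UMIs in WT (32.7 CPM) and 79 in KO (188 CPM), a log2 ratio of 2.21. Serpina1e, another alpha-1-antitrypsin copy, was at 98.1 and 306 CPM (1.55). Paqr9 was at 98.1 and 240 CPM (1.21) and Cited1 at 356 and 826 CPM (1.19), so these markers of the Sox17 cells were higher in KO. Ttr was at 1635 and 1555 CPM, and its interval of the ratio included 1 (0.838 to 1.08). Sox17 itself was at 241 and 280 CPM. Hhex was at 229 and 382 CPM and Itih2 at 192 and 311 CPM; these 3 genes chose the cells, so their levels are a description only. On the lower side, Sox9 had 78 UMIs in WT (319 CPM) and 46 in KO (109 CPM), a log2 ratio of -1.46, or -1.05 without the WT cell rich in progenitor RNA. Without that cell 39 of 2118 genes were at least 2-fold higher in KO and 9 lower. Fras1, a basement membrane protein gene, was at 131 and 49.9 CPM, and Flrt2, a relative of Flrt3, at 233 and 102 CPM.

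Among the cells without Sox17, 133 of 2554 genes (5.21%) were at least 2-fold higher in KO and 25 (0.979%) lower, with only 6 cells on the WT side. Clu, the clusterin gene, had 3 UMIs in WT and 140 in KO, and Anxa5, the annexin A5 gene, 3 and 86. The WT cells held 109207 UMIs in all and the KO cells 588396, so the raw counts overstate these ratios. On the lower side Ptn, the pleiotrophin growth factor gene, was at 284 and 79.9 CPM, and Igfbp5, an insulin-like growth factor binding protein gene, at 330 and 96.9 CPM. The mesenchymal cells had Ptn at 646 CPM in WT and 530 CPM in KO and Igfbp5 at 313 and 481 CPM. Ttr was at 952 and 974 CPM and Sox9 at 430 and 495 CPM, and for both the interval of the ratio included 1.

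Several of the largest ratios between KO and WT were not particular to these cells or belonged to genes on the X chromosome. The UMI counts given for them are not scaled, and the KO group held 1009608 UMIs in all against 353811 in WT. Xist had 864 UMIs in the KO group and 0 in the WT group, at least 101-fold higher in KO from a floor of 3 counts over the WT group. Of the 63 genes at least 2-fold higher in KO that could be placed on chromosomes, 5 were on the X chromosome (7.94%), against 3.12% of the 4452 genes placed. They were Xist, Tsix, Kdm6a, Ctps2 and Arxes1; Kdm6a, a histone demethylase gene known to escape X inactivation, had 4 UMIs in WT and 52 in KO. The predicted genes Gm10260 (1 and 220 UMIs) and Gm8797 (43 and 463 UMIs) are uncertain, since predicted genes can share reads with near-identical copies, and Gm10260 was higher in KO in the rest of the gate too (6 and 84 UMIs). The histone gene Hist1h2ae was at 311 CPM in the WT group and 86.2 CPM in the KO group, and at 354 and 76.8 CPM in the rest. Car4 was at 155 CPM in WT and 49.5 CPM in KO within the group, and at 192 and 87.8 CPM within the cells with Sox17.

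**Figure D5:**
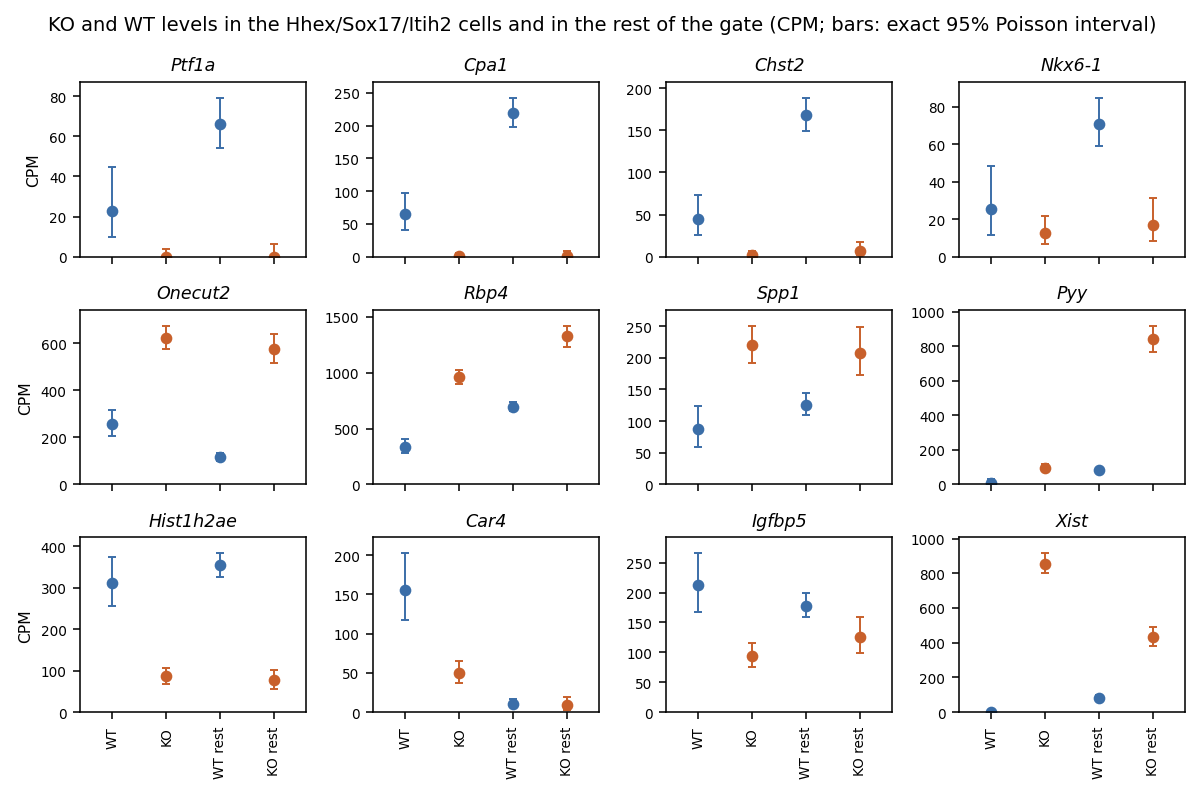
Level of 12 genes in CPM (y axes, each from 0) in the group (WT, KO) and in the rest of the gate (WT rest, KO rest); points are summed UMIs, bars exact 95% Poisson intervals, WT in blue and KO in orange. Ptf1a, Cpa1 and Chst2 are at or near 0 in both KO groups, Onecut2 and Rbp4 are higher in both KO groups, and Xist is at 0 in the WT group.

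No comparison of cells with and without Xist could be made in the WT group. With cells without a Xist UMI only, 8 KO cells remained against the 23 WT cells, and 36 genes were at least 2-fold higher in KO and 40 lower. In the KO cells with Sox17, 25 of 27 had Xist, and only 3 UMIs of Y-linked genes were found in all 27. In the KO cells without Sox17, 27 of 33 had Xist. In the rest of the gate 22 of 130 WT cells (16.9%) and 31 of 45 KO cells (68.9%) had Xist.

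Markers of other cell types were mostly at low levels in the group. Of 13 endothelial genes, 7 were seen in the WT group and 10 in the KO group, with summed levels of 167 and 190.2 CPM against 76.8 and 249 CPM in the rest of the gate. The per-cell sums ran from 0 to 449 CPM in WT and from 0 to 912 CPM in KO. Endothelium also expresses Sox17, and the summed level was 196 CPM (WT) and 207 CPM (KO) in the cells with Sox17 and 101 and 178 CPM in those without. In the cells with Sox17 7 of the 13 genes were seen in each library, and Pecam1, Cdh5 and Sox18 were at 0 in both. Flt1, a VEGF receptor gene, had 11 (WT) and 17 (KO) UMIs in the cells with Sox17 and 1 and 3 in those without, a KO log2 ratio of 1.74. Egfl7, a secreted endothelial factor gene, was at 61.3 and 126 CPM with Sox17 and at 27.5 and 52.7 CPM without. Ramp2, a receptor activity-modifying protein gene, was at 65.4 and 30.9 CPM with Sox17 and at 45.8 and 104 CPM without. The part of endothelial RNA in the Sox17 values was not tested. Of 16 mesenchymal genes, 14 and 15 were seen, with summed levels of 220.5 and 213 CPM against 261 and 667 CPM in the rest. Of 10 blood genes, none was seen in the WT group and 8 were seen in the KO group, with 26 UMIs in all. Of 8 neural crest and neuron genes, 4 and 8 were seen, at 45.2 and 52.5 CPM in sum. Of 5 mesothelial genes, 3 were seen in each group, with 6 and 3 UMIs. Gut and stomach genes summed to 31.1 CPM in WT and 28.7 CPM in KO, and acinar genes to 84.8 and 2.97 CPM.

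Dissociation stress genes moved with the split by Sox17. They summed to 151 CPM (WT) and 192 CPM (KO) in the cells with Sox17 and to 366 and 466 CPM in the cells of the group without it, against 462 and 396 CPM in the rest of the gate. Jun, an immediate-early factor gene, was at 45.0 and 76.0 CPM with Sox17 and at 229 and 277 CPM without. Their part in the other differences was not tested.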

How the data were processed

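Single-cell RNA libraries of 1 WT and 1 KO pool were used; the ATAC libraries were not analysed here. The deposited matrix holds raw UMI counts (whole numbers, per the file headers) for 31028 gene symbols, and the library of a cell was taken from its deposited barcode prefix. The submitters' processing notes name the build mm10; the sources used here do not state the aligner or cell filters. Gene positions were looked up by symbol in GENCODE for that build.

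The cells, gene lists and comparisons were chosen with earlier results of these data known. UMIs were summed over cells, scaled to CPM, and compared as log2 ratios of CPM plus 10, which understates the change of low genes. Genes needed 50 UMIs in the 2 groups together (20 for the split by Sox17). The genes named were the 12 highest and 12 lowest with non-overlapping intervals, the markers, and members of the 19 lists; other genes were chosen after their values were seen. The split by Sox17, the Pdx1 classes and the mesenchymal cells without hormone RNA (fewer than 10 hormone UMIs), and leaving out 1 WT cell rich in progenitor RNA, were chosen after seeing the data: the planned mesenchymal cells, 22 per library, held hormone cells. Doublets were called with scrublet (scanpy 1.11.5) on cells with at least 1000 genes, at 0.443% in WT and 2.17% in KO, and kept. Intervals are exact Poisson, exact binomial (Clopper-Pearson), exact conditional (ratios) or Newcombe (differences of shares). The log2 ratios and the intervals of the ratios were tested on simulated Poisson counts without variation between cells. That test does not show how well the intervals hold where single cells differ.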

Additional observations from a re-analysis of the deposited data

Results flagged for a closer look

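Gcg, the glucagon gene, was higher in the Hhex/Sox17/Itih2 cells than in the rest of the gate in WT (log2 ratio 1.58) and lower in KO (-4.23), so the libraries showed opposite directions; the difference was not tested. The WT group held 27 Gcg UMIs, 15 of them in 1 cell, and in the KO rest of the gate 12 of 45 cells were rich in hormone RNA.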

How the results depend on the processing

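The larger KO share of the gate kept its direction under each alternative run. Its difference of 42.1 points was 26.4 with Hhex left out of the sum, 29.2 without Itih2, 14.6 for cells with Sox17 and 27.5 for those without. Counts of genes past 2-fold depend on the settings. The number of genes measured changes with the cells and the minimum too, and the counts are given here without it. Higher than the rest in both libraries were 14 genes, against 9 at 3000 detected genes or more, 6 without cells with a mesenchymal UMI, 2 without cells with 2 or more endothelial UMIs, 4 at a pseudocount of 50 CPM, at a minimum of 100 UMIs or thinned to 5000 UMIs a cell, 27 with no minimum and 3 for cells without Sox17. Lower in both were 9, against 21 at a sum of 6, 24 without Hhex, 17 without Itih2, 5 without cells with a mesenchymal UMI, at 50 CPM, thinned or without hormone cells in either set, 24 at 20 UMIs, 30 with no minimum and 27 for cells with Sox17.

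Higher in KO within the group were 65 genes, against 42 without cells with a mesenchymal UMI, 30 without endothelial ones, 149 at a pseudocount of 1 CPM, 9 at 50, 186 at 20 UMIs, 21 at 100, 250 with no minimum, 41 with median-of-ratios scaling, 100 with cells weighted equally, 42 thinned, 33 with Sox17, 133 without it and 36 without Xist. Lower were 6, against 11, 12, 3, 26, 68, 12, 25 and 40 without endothelial cells, at 1 CPM, at 50 CPM, at 20 UMIs, with no minimum, with that scaling, without Sox17 and without Xist. In the rest of the gate 109 were higher, against 65 without cells with a mesenchymal UMI, 227 and 20 at 1 and 50 CPM, 224, 36 and 270 at 20, 100 and no minimum UMIs, 61 with median-of-ratios scaling and 55 thinned. Lower were 59, against 110 without endothelial cells, 18 at 50 CPM, 95 with that scaling and 186 without Xist.

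The share with a Sox17 UMI was 47.8% in WT and 31.7% in KO after thinning, beside 73.9% and 45%. Apoa2 turned to -0.34 in WT without Itih2 in the sum and to -0.049 in KO for cells without Sox17. Rbp4 and Nepn in the WT split by Sox17 turned to 0.38 and 4.29 without cells with a mesenchymal UMI. Causes of these shifts were not tested. Over single genes and the Pdx1 shares under all alternatives, 2592 values stayed within counting error or 0.1 (log2) and 412 moved beyond it. No paired analysis was possible because each genotype has 1 library. Depth limits low genes most: 3 UMIs are 8.48 CPM in the WT group.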
